A study of Mus musculus with 12 samples.

Results

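The 10 genes described here encode NRF2 (Nfe2l2), its inhibitor KEAP1 (Keap1) and 8 enzymes of the glutathione and thioredoxin systems: Gclc, Gclm, Gsr, Gpx1, Gpx4, Txnrd1, Prdx1 and Srxn1. They were chosen by name as a pathway, and all 10 were among the 12339 genes of the deposited count table. RNA came from elicited peritoneal macrophages of wild-type (WT) and meKO mice, and either genotype was fed chow or a high fat diet (HFD). From the study's title, meKO is read as a myeloid knockout of Prkce, the gene of protein kinase C epsilon; the Cre line was not given in the sources used here. This gives 4 groups of 3 libraries: WT chow, WT HFD, meKO chow, meKO HFD.

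All 4 groups shared a treatment. Every mouse received an AAV8 viral vector at 8 weeks of age, after which the high fat diet leads to high blood cholesterol. So the chow groups were vector-treated mice on ordinary food, not untreated mice. Thioglycolate was used 4 weeks later to call macrophages into the peritoneal cavity, from which they were washed out. The labels describe 8 animals per genotype, 4 of them on HFD, and 12 libraries were analysed here. Each library's title carries a number of its own, but nothing says more about its source, and p-values measure the spread between these libraries.

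NRF2 is a transcription factor that KEAP1, an adaptor for the CUL3 ubiquitin ligase, holds at a low level by marking it for degradation. Oxidants and electrophiles modify cysteines of KEAP1, and NRF2 then accumulates, enters the nucleus and binds antioxidant response elements together with small MAF proteins. Because this switch acts on the protein, the mRNA of Nfe2l2 or Keap1 does not report it directly, while mRNAs of its target genes do. Among the targets, GCLC and GCLM form the enzyme that limits glutathione synthesis, GSR recycles oxidised glutathione, and TXNRD1, PRDX1 and SRXN1 belong to the thioredoxin and peroxiredoxin system. GPX1 and GPX4 are selenoenzymes that spend glutathione to reduce hydrogen peroxide and lipid hydroperoxides, and GPX4 guards cells against ferroptosis. In macrophages the pathway is known for buffering the oxidants of the respiratory burst and of oxidised lipoproteins.

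The sequence NRF2 binds was looked for first, since it is what ties the target genes together. The core antioxidant response element, TGACNNNGC, was searched on both strands in the RefSeq promoter windows of mouse build GRCm38.p6, which run from 250 bases before to 50 after a gene's start. Windows were given for 8 of the 10 genes, all but Gclc and Gsr. Of these 8, 5 held the element (Nfe2l2, Gclm, Txnrd1, Prdx1 and Srxn1), against 17.3% of the 9553 genes of the count table with a window. By window the share was 5 of 13, against 12.4% of all 32851 windows. Keap1, Gpx1 and Gpx4 held no match in their windows. Below are the stretches around 4 of the matches, on the gene's strand, with the 9 bases of the element in capitals; in all but Nfe2l2 the element reads on the opposite strand and so begins with GC. They are shown because results below turn on these genes: Txnrd1 for diet, Gclm and Prdx1 for the level in a single library, and Nfe2l2 as the regulator.
Nfe2l2: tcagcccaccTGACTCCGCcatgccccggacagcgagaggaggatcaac
Gclm: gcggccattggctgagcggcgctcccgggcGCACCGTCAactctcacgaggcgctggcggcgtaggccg
Txnrd1: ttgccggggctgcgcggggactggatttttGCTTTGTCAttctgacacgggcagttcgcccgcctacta
Prdx1: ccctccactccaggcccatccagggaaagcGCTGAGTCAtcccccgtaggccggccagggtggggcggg
The Nfe2l2 stretch lies at chr2:75704865-75704913 on the minus strand, with its element at base -240 from the start site. The others are on the plus strand, at chr3:122245393-122245461 for Gclm (element at -134), chr10:82859084-82859152 for Txnrd1 (-92, in 1 of its 3 windows) and chr4:116685436-116685504 for Prdx1 (-133). In Srxn1 the match lay 28 bases after the start. The element overlaps the AP-1 motif TGAGTCA, whose letters are part of the Prdx1 match. A match is a description of these letters and does not show that a factor bound there.

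Total counts per library were 25844958 to 37282772. Levels are given as CPM, counts scaled to library size with TMM factors. The targeted gene, Prkce, had a mean of 1.37 ± 0.347 CPM in the meKO libraries against 3.08 ± 1.03 CPM in WT (SD, n = 6; two-sided exact permutation p = 0.00216, which is the lowest possible value here). Every meKO library was below every WT library. All 8 macrophage markers were detected in every library, for example Adgre1 at 513 to 697 CPM, Csf1r at 473 to 844 CPM and Cd68 at 2540 to 3660 CPM. A pair of features of the libraries bears on the 10 genes. First, a library's log2 CPM relative to the mean of all 12 varied with transcript length. Spearman's rho with length, over 11532 genes, reached 0.599 and 0.645 for the first and second WT chow libraries and -0.0428 for the third, and ran from -0.427 to 0.116 for the 9 libraries of the other groups. Second, meKO chow replicate 2 stood apart. It had Lyz2, the lysozyme gene of macrophages, at 69.3 CPM. Lyz2 was at 16290 to 21310 CPM in the other meKO libraries and at 30480 to 53840 CPM in the WT libraries. In meKO chow replicate 2 the other 7 macrophage markers summed to 5620 CPM, within the 4970 to 6230 CPM over all libraries.

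Levels are compared between genes as CPM per kilobase of the longest annotated transcript. Gpx1 was the most abundant of the 10 at 3200 ± 984 (SD, n = 12), followed by Prdx1 at 495 ± 133 and Nfe2l2 at 218 ± 20.5. These 3 were separated from each other and from the rest in every library. Below them stood Gpx4 (46.2), Gsr (23.6), Srxn1 (16.3), Txnrd1 (13.4), Keap1 (8.41), Gclc (6.61) and Gclm (4.03), where each gene's range over the 12 libraries overlapped that of its next neighbour. With the length of the median transcript in place of the longest, Gpx1, Prdx1 and Nfe2l2 kept their order and the others changed places, Srxn1 standing next at 103 and Keap1 last at 9.65. Gpx1 and Prdx1 both reduce peroxides, and both were above the 99th percentile of all genes by mean CPM. Pseudogenes of Gpx4 and Prdx1 exist, and Gclm, Gsr, Txnrd1 and Prdx1 overlap other annotated genes, so the values of these genes are uncertain to the extent that reads were shared.

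**Figure D1:**
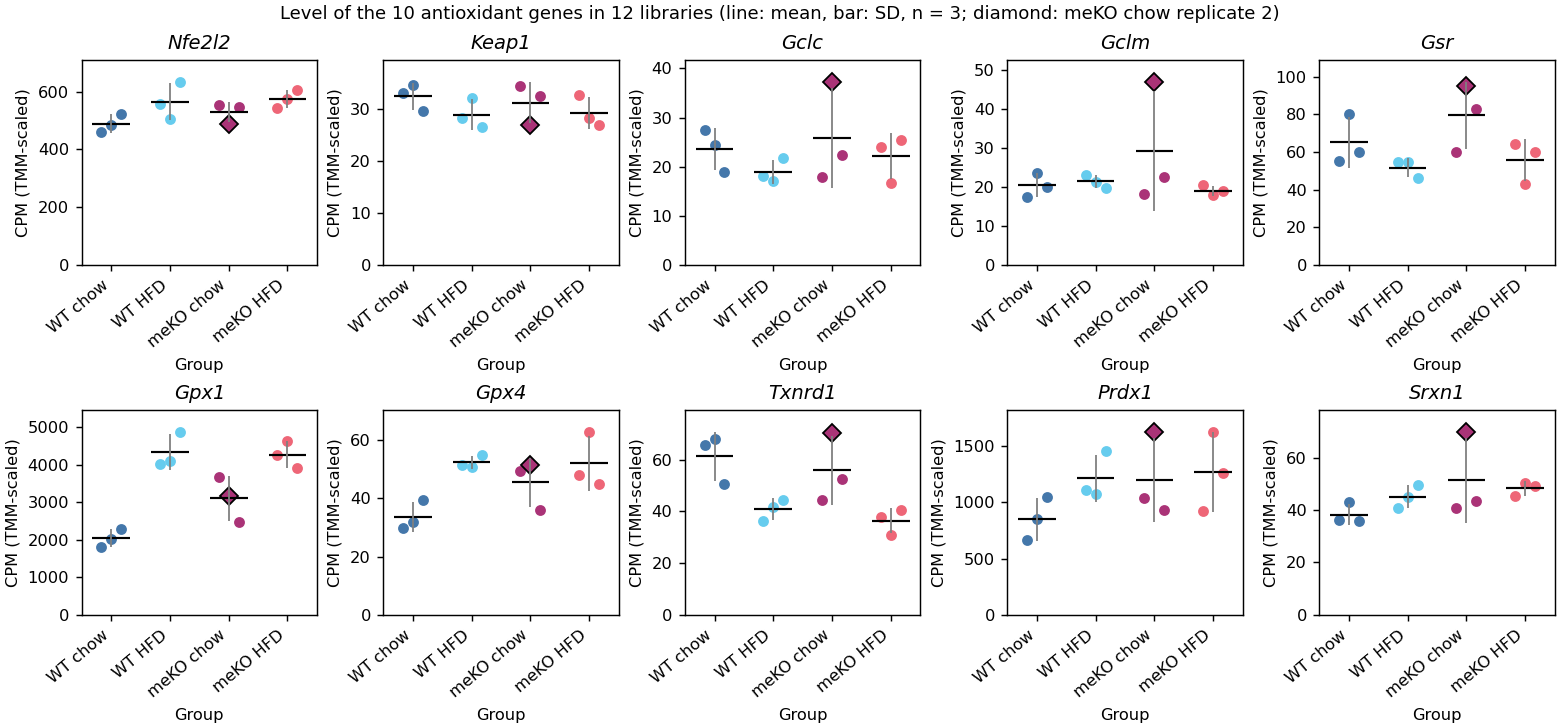
Level of each of the 10 genes in CPM (y axis, linear from 0) in the 4 groups (x axis); points are libraries, horizontal lines group means, vertical lines SD (n = 3), and the black-edged diamond is meKO chow replicate 2. Gpx1 lay at 1795 to 2277 CPM in WT chow and at 2469 CPM or more in every other library, and Gclm stood at 46.9 CPM in the diamond library and at 23.6 CPM or less in the other 11.

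The diet contrast in WT asked what the high fat diet changed in macrophages with the kinase. Gpx1 and Gpx4, the glutathione peroxidases, rose and Txnrd1, thioredoxin reductase, fell, so 3 of the 10 genes passed the test (edgeR's quasi-likelihood test, Benjamini-Hochberg adjusted p under 0.05 over all 12339 genes). Of all genes 21.3% passed in this contrast, 9.5% higher and 11.8% lower, so a count of 3 in 10 is near that of genes in general and is no result about the pathway. The median log2 fold change of the 10 was 0.14, against -0.03 over all genes. With bulk RNA, a change in the number of cells of a type and a change in RNA per cell cannot be told apart. Sums of other cells' markers also differed between WT chow and WT HFD: B cells 106 to 163 against 51.9 to 87.2 CPM (5 of 7 listed genes measured), dendritic cells 31.3 to 46.7 against 15.9 to 24.3 (6 of 6), neutrophils 156 to 200 against 141 to 150 (7 of 10), eosinophils 19.9 to 28 against 14.1 to 19 (3 of 6), and mesothelium and fibroblasts 52.8 to 93.7 against 94.9 to 141 (11 of 12). The sums for T and NK cells, mast cells, resident large peritoneal macrophages and red blood cells overlapped. In meKO, chow and HFD were apart for T and NK cells (14.6 to 15.3 against 23.9 to 27.5 CPM). Mesothelium and fibroblasts were too (52.5 to 97.5 against 114 to 143). On HFD, WT and meKO were apart for neutrophils (141 to 150 against 172 to 188 CPM) and eosinophils (14.1 to 19 against 19.1 to 38.1). So were T and NK cells (17.6 to 23.6 against 23.9 to 27.5). The other sums of these lists overlapped there, as all did for genotype on chow. No measured marker of these lists was at 0 in any library, while Pax5, Ebf1, Ly6g, Ngp, Camp, Prg2, Epx, Ear6 and Muc16 were not among the tabled genes. Their part in the results was not tested.

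Gpx1 (Entrez gene 14775, chr9:108339080-108340342, GRCm38) showed the largest change of the 10. In WT its 3 chow libraries had 1795, 2029 and 2277 CPM, here and below in the order of replicates 1, 2 and 3, and its 3 HFD libraries had 4011, 4093 and 4879 CPM. Every HFD library was above every chow library, and the difference was a 2.13-fold rise, 1.09 ± 0.15 on the log2 scale (SE; edgeR adjusted p = 0.00308). In meKO it was 3665, 3160 and 2469 CPM on chow and 4263, 4621 and 3897 CPM on HFD. Here too the groups did not overlap, but the log2 difference of 0.46 ± 0.15 did not pass (adjusted p = 0.216). The meKO chow libraries thus lay between WT chow and both HFD groups, and all 3 were above all 3 WT chow libraries, by 0.61 ± 0.15 on the log2 scale (adjusted p = 0.0968). On HFD the genotypes differed by -0.02 ± 0.15 (adjusted p = 0.999).

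The test of whether the diet effect on Gpx1 differed between genotypes gave -0.63 ± 0.21 on the log2 scale (meKO minus WT; unadjusted p = 0.01, edgeR adjusted p = 0.773), which did not pass. Both the diet effect in WT and the genotype effect on chow use the WT chow libraries. The rise in WT was called under each of 22 alternative settings, between 0.79 and 1.19 on the log2 scale. The genotype difference on chow was called with DESeq2 (adjusted p = 0.00768), with library quality weights (0.00358) and without WT chow replicate 3 (0.0131), and in none of the other 19. Without meKO chow replicate 2 it was 0.60 (adjusted p = 0.289), and with a correction for transcript length and GC content it was 0.40 ± 0.10 (0.14). The same correction changed the diet difference in meKO from 0.46 to 0.29 (adjusted p = 0.175). Of the genes of chromosome 9 that passed for genotype on HFD and lie within 3.21 Mb of Gpx1, 4 also passed for diet in WT: Nudt16 (1.09, adjusted p = 0.0318), Dusp7 (-0.65, 0.0178), Rpl29 (-3.88, 2.58e-06) and Abhd14b (-1.32, 0.00207). Whether these bear on the Gpx1 value was not tested.

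Gpx4 (Entrez gene 625249, chr10:80047166-80056439) had 29.8, 31.9 and 39.6 CPM in the WT chow libraries, against 51.6, 50.7 and 55.1 CPM in WT HFD. The groups did not overlap, and the rise was 0.64 ± 0.16 on the log2 scale (edgeR adjusted p = 0.0219). In meKO it was 49.5, 51.5 and 35.9 CPM on chow and 48.2, 63.0 and 45.1 CPM on HFD, overlapping groups with a difference of 0.19 ± 0.16 (adjusted p = 0.558). The first and second meKO chow libraries were near the HFD level, and the genotype difference on chow was 0.44 ± 0.16 (adjusted p = 0.174). It was called without WT chow replicate 3 (0.58, 0.0308) and with quality weights (0.56, 0.0105), and with the length and GC correction it was 0.24 ± 0.10 (0.266). The rise in WT lost its call when any of WT chow replicates 1 and 2 or WT HFD replicates 1 and 3 was left out (adjusted p 0.0594 to 0.109).

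Gsr, which regenerates the glutathione that GPX1 and GPX4 spend, did not share their direction. It was at 54.9, 80.4 and 60.2 CPM in WT chow and at 54.5, 54.7 and 46.0 CPM in WT HFD, a log2 difference of -0.33 ± 0.19 (edgeR adjusted p = 0.212), with no overlap between the groups by a margin of under 1 CPM. In meKO it was at 60.1, 95.1 and 82.9 CPM on chow and at 64.3, 43.0 and 60.0 CPM on HFD. Those groups overlapped, with a difference of -0.51 ± 0.19 (adjusted p = 0.261), and of -0.37 without meKO chow replicate 2. Averaged over the genotypes Gsr fell on HFD by 0.42 ± 0.14 on the log2 scale (adjusted p = 0.0335), a call that was lost in 6 of the 12 settings that left out 1 library.

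Txnrd1 (Entrez gene 50493, chr10:82833951-82897724) passed in the other direction. It was at 65.8, 68.1 and 50.6 CPM in WT chow and at 36.3, 41.7 and 44.6 CPM in WT HFD, all lower than chow, and fell by 0.59 ± 0.17 on the log2 scale (edgeR adjusted p = 0.0316). In meKO it was at 44.4, 70.5 and 52.7 CPM on chow and at 37.8, 31.0 and 40.6 CPM on HFD, again without overlap. That difference was of the same size, -0.62 ± 0.17, and did not pass (adjusted p = 0.173; 0.0434 with DESeq2). Without meKO chow replicate 2, the highest of the 12 libraries, it was -0.42. The fall in WT lost its call when WT chow replicate 1 or 2 or any WT HFD library was left out (adjusted p 0.0624 to 0.128), and averaged over the genotypes the fall of 0.60 ± 0.12 (adjusted p = 0.0071) was called in 21 of 21 alternatives.

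Prdx1, the peroxiredoxin whose disulfide the thioredoxin system reduces, was at 661, 850 and 1045 CPM in WT chow and, with WT HFD, at 1114, 1077 and 1458 CPM. There was no overlap, but the log2 difference of 0.51 ± 0.24 did not pass (edgeR adjusted p = 0.13; 0.011 with library quality weights). In meKO its libraries ran from 928 to 1628 CPM on chow and from 924 to 1631 CPM on HFD, nearly the same range (log2 difference 0.09 ± 0.24, adjusted p = 0.884). Srxn1, sulfiredoxin, which repairs overoxidised peroxiredoxins, was at 36.1, 43.0 and 35.7 CPM in WT chow and at 40.7, 45.0 and 49.6 CPM in WT HFD, overlapping groups that differed by 0.24 ± 0.18 (adjusted p = 0.33). So of the 3 genes of the thioredoxin and peroxiredoxin system only Txnrd1 passed in WT with edgeR.

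Neither the regulators nor the glutathione-synthesis pair passed the test for diet in WT. Nfe2l2 was at 461, 484 and 523 CPM in WT chow and at 557, 505.5 and 633 CPM in WT HFD, a difference of 0.21 ± 0.11 on the log2 scale (edgeR adjusted p = 0.167; 0.0451 with library quality weights). Keap1 was at 33.1, 34.5 and 29.5 CPM in WT chow and at 28.2, 32.1 and 26.4 CPM in WT HFD (-0.16 ± 0.13, adjusted p = 0.355). Gclc, the catalytic subunit of glutamate-cysteine ligase, was at 27.4, 24.4 and 18.9 CPM on chow and at 18.2, 17.01 and 21.8 CPM on HFD (-0.31 ± 0.24, adjusted p = 0.348). All 3 had overlapping groups. Gclm, the modifier subunit that raises the activity of GCLC, was at 17.5, 23.6 and 20.1 CPM on chow and at 23.2, 21.4 and 19.9 CPM on HFD (0.07 ± 0.26, adjusted p = 0.852; -0.01 when scaled by library totals), again with overlap.

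In meKO the same 4 genes and Srxn1 showed no diet call either. Nfe2l2 had 554, 489 and 546 CPM on chow and 545, 573 and 607 CPM on HFD (0.12 ± 0.11 on the log2 scale, edgeR adjusted p = 0.589), and Keap1 had 34.4, 26.8 and 32.4 CPM on chow and 32.7, 28.2 and 26.8 CPM on HFD (-0.09 ± 0.13, adjusted p = 0.743). For both regulators the libraries of the diets were mixed. Gclc had 17.9, 37.2 and 22.3 CPM on chow and 24.1, 16.8 and 25.5 CPM on HFD (-0.22 ± 0.24, adjusted p = 0.657), Gclm 18.1, 46.9 and 22.7 CPM on chow and 20.4, 17.8 and 18.9 CPM on HFD (-0.62 ± 0.26, adjusted p = 0.291), and Srxn1 40.9, 70.1 and 43.4 CPM on chow and 45.3, 50.6 and 49.3 CPM on HFD (-0.09 ± 0.18, adjusted p = 0.822). In all 3 the second chow library was the highest by far. Among the other libraries the diets overlapped for Gclc and Gclm, while for Srxn1 both chow libraries were below all 3 HFD libraries.

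In meKO 0 of the 10 genes passed the diet contrast with edgeR, where 0.105% of all genes passed. By unadjusted p under 0.05 there were 4 (Txnrd1, Gpx1, Gsr and Gclm), against 15.9% of all genes. DESeq2 called 1, Txnrd1, in a fit that called 226 of all 12099 genes tested. Averaged over the genotypes 4 passed, Gpx1 (0.77 ± 0.11, adjusted p = 0.00142) and Gpx4 (0.41 ± 0.11, 0.0192) higher, Txnrd1 and Gsr lower, against 30.2% of all genes (14.9% higher and 15.3% lower). Gpx4 lost that call with the length and GC correction (0.18 ± 0.07, 0.0751) and without WT chow replicate 1 (0.38, 0.0541), and Gpx1 kept it with the correction at 0.54 ± 0.07 (0.00115). Without overlap between the diets were 5 of the 10 in WT (Gpx1, Gpx4 and Prdx1 higher, Gsr and Txnrd1 lower) against 39.3% of all genes (19.4% higher and 19.9% lower). In meKO there were 2, Gpx1 higher and Txnrd1 lower, against 19.7% of all genes (10.3% higher and 9.38% lower). In both genotypes these counts are near those of genes in general.

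**Figure D2:**
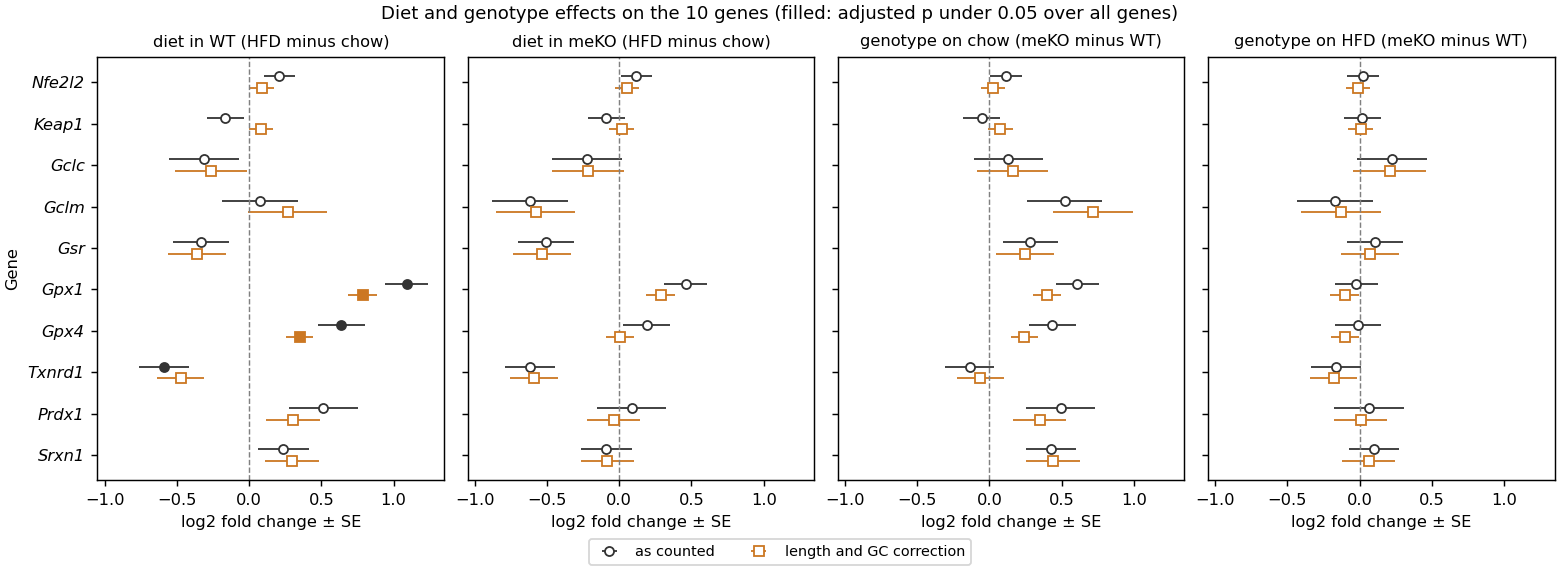
Log2 fold change ± SE (x axis) of the 10 genes (y axis) in the diet contrasts in WT and meKO and the genotype contrasts on chow and HFD; circles are the counts as deposited, squares the fit corrected for transcript length and GC content, and filled symbols passed an adjusted p of 0.05. Gpx1 is at 1.09 and Txnrd1 at -0.59 for diet in WT, and the circles of all 10 genes lie between -0.17 and 0.22 for genotype on HFD.

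The genotype contrasts asked what the kinase knockout changed on each diet. On chow 0 of the 10 genes passed with edgeR (0.081% of all genes did). An unadjusted p under 0.05 was reached by 3 (Gpx1, Gpx4 and Srxn1), against 19.8% of all genes. DESeq2 called 1, in a fit that called 563 of all 11142 genes tested. Voom with library quality weights called 3 (Gpx1, Gpx4 and Prdx1), in a fit that called 4047 of all 12339 genes. The log2 differences were above 0 for 8 of the 10, with a median of 0.36 against -0.00 over all genes, and the median was 0.15 without meKO chow replicate 2 and 0.24 with the length and GC correction. This contrast varied with transcript length over all genes (Spearman's rho -0.602, against -0.537 for diet in WT). Gpx1 was the only 1 of the 10 without overlap, against 17.1% of all genes (8.87% higher). On HFD 0 passed (0.081% of all genes), 0 had an unadjusted p under 0.05 against 4.56% of all genes, no other tool called one, and 0 were without overlap, against 10.3%. There Nfe2l2 was at 557, 505.5 and 633 CPM in WT and at 545, 573 and 607 CPM in meKO, and Gclm at 23.2, 21.4 and 19.9 CPM against 20.4, 17.8 and 18.9 CPM. Averaged over the diets 0 passed (0.17% of all genes), and 1 had an unadjusted p under 0.05, against 17.7% of all genes. Quality weights called 2 of the 10 there, and 3835 of all 12339 genes. For the genotype by diet interaction 0 passed (0.0162%), and Gpx1 alone had an unadjusted p under 0.05, against 6.13% of all genes. Gpx1 was also the 1 member called there with quality weights, in a fit that called 295 of all 12339 genes. A p above the threshold with 3 libraries a group does not show that the genotypes were alike: the SE of a log2 difference of 1 of the 10 genes, on chow or on HFD, was 0.11 to 0.26.

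The diet result in WT moved with transcript length, and the genes that passed were among the shortest and the longest of the 10. Gpx4 and Gpx1 have the shortest transcripts (995 and 1072 bases), Txnrd1 is 3622 bases long, and the other 7 range from 2294 (Prdx1) to 5589 bases (Gclm). Over all genes the median log2 fold change for diet in WT was 0.41 for the 1310 genes of up to 1500 bases, 0.12 for those over 1500 and up to 3000 bases and -0.23 for the 6676 longer ones. Among the short genes 2.29% had a log2 fold change as high as that of Gpx1 and 20.2% one as high as that of Gpx4, and among the long genes 16.2% had one as low as that of Txnrd1. With a correction for transcript length and GC content Gpx1 rose by 0.79 ± 0.10 on the log2 scale (edgeR adjusted p = 0.00199) and Gpx4 by 0.35 ± 0.10 (0.0359), while Txnrd1, at -0.47 ± 0.16, no longer passed (0.0688). Then 2 of the 10 were called, against 13.1% of all genes. Keap1 changed sign with the correction in WT, from -0.16 to 0.08, and passed in neither fit.

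**Figure D3:**
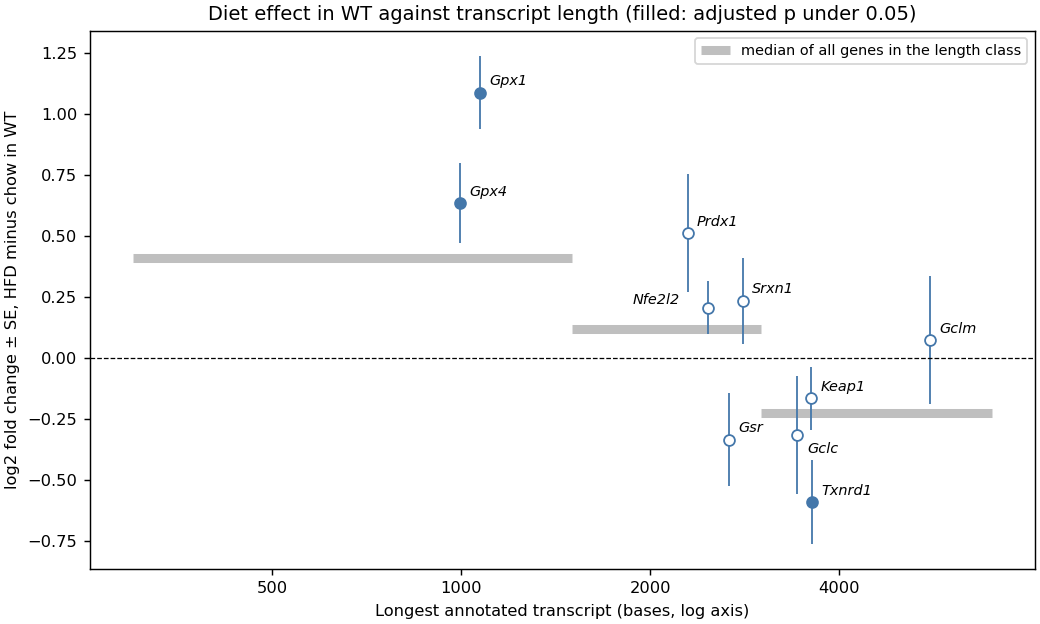
Log2 fold change ± SE for HFD minus chow in WT (y axis) of the 10 genes against the length of their longest annotated transcript in bases (x axis, log scale); filled points passed an adjusted p of 0.05, and grey bars are medians of all genes in 3 length classes (0.41, 0.12 and -0.23). Gpx1 and Gpx4 lie above the bar of the short genes and Txnrd1 below that of the long ones.

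A separate pattern among the 10 genes was seen in meKO chow replicate 2, a library that was singled out after its values were seen and has no test. Gclc, Gclm, Gsr, Txnrd1 and Srxn1 all had their highest level of the 12 libraries there, 5 of the 10 genes, while 4.29% of all genes did. Counting by size, 6 of the 10 (these 5 and Prdx1) were at least 0.5 above the mean of the other 11 libraries on the log2 scale, against 2.89% of all genes. Gclm was at 46.9 CPM against 17.5 to 23.6 CPM elsewhere, Gclc at 37.2 CPM and Srxn1 at 70.1 CPM. Prdx1 reached 1628 CPM, which meKO HFD replicate 2 matched at 1631 CPM. The genes that did not stand out there were Gpx1, Gpx4, Nfe2l2 (489 CPM, near the low end of its range) and Keap1 (26.8 CPM). Of the 6 raised genes, 4 (Gclm, Txnrd1, Prdx1 and Srxn1) carry the element searched for in the promoters. Gclc and Gsr had no window to search, and Nfe2l2, which was not raised there, carries the element too. Of the 8 members with a window 5 carry it, and of all genes of the count table with a window 17.3%. The members were chosen as a pathway and the 6 after their values were seen, so this count is a description only.

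Some other targets of NRF2 were also high in the same library. Of 21 measured genes in a list of other NRF2 targets, 11 were highest there and 7 were at least 0.5 above the mean of the rest, with a list median of 0.35. Hmox1, heme oxygenase, was at 1987 CPM against at most 770 CPM elsewhere. Blvrb, a biliverdin reductase, was at 122 CPM against at most 87.0 CPM, and Osgin1 at 4.23 against at most 2.77 CPM. Nqo1, the quinone reductase often used as a readout of NRF2, was low everywhere, 1.19 CPM there against at most 1.003 CPM. Slc7a11, the cystine transporter subunit, went the other way, at 1.06 CPM there against 1.24 CPM or more in the other 11 libraries. In the list of glutathione synthesis, recycling and transferases 6 of 29 genes were highest there and 4 were at least 0.5 above the mean of the rest. That list's median was 0.17, and its raised genes included Gstm2 (1.01) and Gpx3 (0.68). Fewer were highest there among NRF2 regulators (1 of 13) and selenoprotein genes (1 of 17). The count was 0 of 21 other thioredoxin, peroxiredoxin and methionine sulfoxide reductase genes, 0 of 4 superoxide dismutase and catalase genes and 0 of 8 NADPH oxidase genes. Chosen after their values were seen, Slc40a1 (the iron exporter ferroportin) was at 73.5 CPM against at most 17.1 CPM, and Spic, a transcription factor of iron-recycling macrophages, at 2.82 against at most 1.21 CPM. In that library the red blood cell markers summed to 10.2 CPM (1.15 to 42.6 over all libraries, 3 of 6 listed genes measured) and those of resident large peritoneal macrophages to 42.9 CPM (the lowest of the 12, 7 of 7 measured). The part of these cells in the result was not tested.

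**Figure D4:**
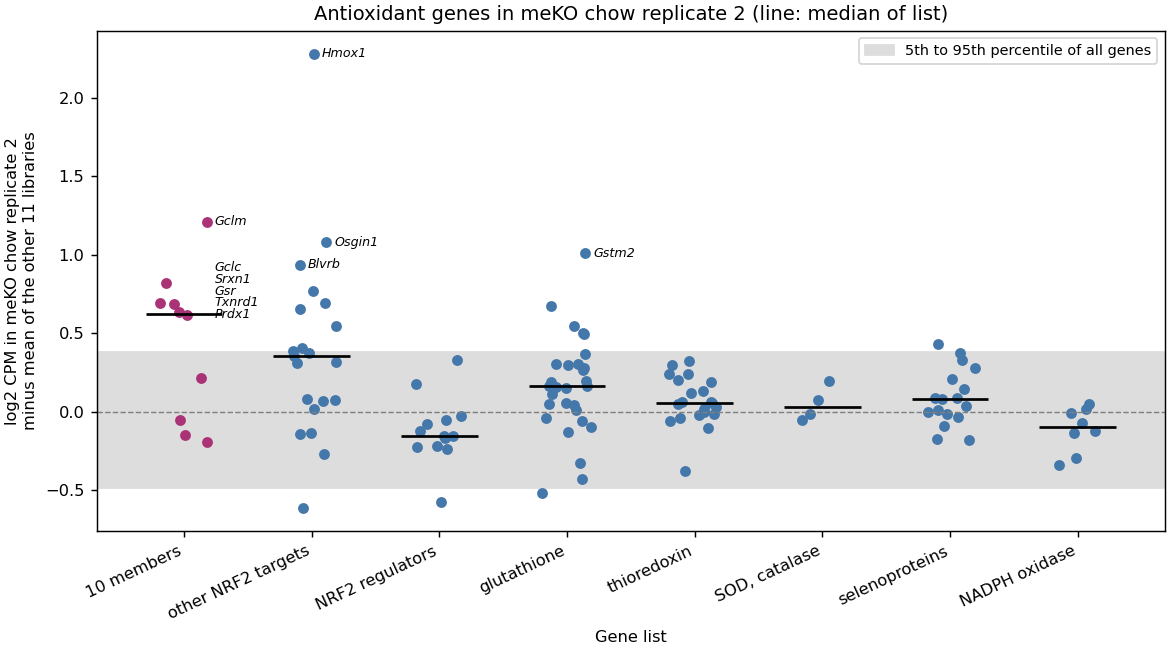
Log2 CPM in meKO chow replicate 2 minus the mean of the other 11 libraries (y axis) for the 10 genes and 7 lists of related genes (x axis); points are genes, lines list medians, and the grey band holds the middle 90% of all genes. The 10 genes have a median of 0.63 and Gclm is at 1.21; the library was chosen for these values, so they are a description.

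The differences of the meKO chow group changed for several of the 10 genes without that library, some becoming smaller and others larger or reversed in sign. On the log2 scale, the genotype difference on chow went from 0.52 to 0.01 for Gclm, from 0.43 to 0.15 for Srxn1 and from 0.49 to 0.22 for Prdx1. It went from 0.13 to -0.22 for Gclc, from -0.14 to -0.33 for Txnrd1 and from 0.11 to 0.18 for Nfe2l2. The diet difference in meKO went from -0.62 to -0.10 for Gclm and from -0.09 to 0.19 for Srxn1. For Gpx1 the same step changed the genotype difference from 0.61 to 0.60 and the diet difference in meKO from 0.46 to 0.47. None of these values passed the test with or without the library.

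The wider pathway was read from 7 lists of related genes for diet in WT, where 21.3% of all genes passed (9.5% higher and 11.8% lower). Of 21 thioredoxin, peroxiredoxin and methionine sulfoxide reductase genes 8 rose and 0 fell, with a list median of 0.31 on the log2 scale. They included Prdx2 (from 114 ± 24.95 to 197 ± 17.5 CPM, SD, n = 3; 0.78, edgeR adjusted p = 0.0266), Prdx5 (from 251 ± 48.0 to 391 ± 26.7 CPM; 0.64, 0.0169) and Msrb1, a selenoprotein that repairs oxidised methionine (0.63, 0.0159). Of 29 genes of glutathione synthesis, recycling and transfer 3 rose and 0 fell: Mgst3, a microsomal transferase (0.81, 0.0156), Gpx8, which was rare at 0.699 ± 0.213 and 2.35 ± 0.767 CPM (1.76, 0.0333), and Slc3a2, the heavy chain of the cystine transporter (0.38, 0.0493). Of 4 superoxide dismutase and catalase genes Sod1 alone passed (0.59, 0.0218). With the length and GC correction the calls were 5 higher in the first list, 2 in the second, and 2 higher and 1 lower in the third. Over all 12339 genes that fit called 931 higher and 686 lower, 13.1% together. The median of the first list was then 0.12. In that list Prdx2, Prdx5 and Msrb1 kept their calls. Txndc17, which had also risen (0.57, edgeR adjusted p = 0.0277), was at 0.03 (0.849) with the correction.

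Regulators and targets of NRF2 went both ways in WT. Of 13 regulators Rbx1, a subunit of the KEAP1 ubiquitin ligase, rose (0.53, edgeR adjusted p = 0.0203), while Bach1, the repressor that competes with NRF2 for its elements, fell by 0.64 (0.034) and Nfe2l1, the related factor NRF1, fell by 0.46 (0.0448). With the length and GC correction Bach1 (-0.33, 0.108) and Nfe2l1 (-0.13, 0.319) no longer passed, while Rbx1 kept its call (0.39, 0.0265). Of the regulators 2 were then called higher and 0 lower. Of 21 other targets 4 rose, among them the aldo-keto reductase Akr1b8 (0.97, 0.0379), Blvra (0.50, 0.0404) and Taldo1 of the pentose phosphate pathway (0.48, 0.0263), and Abcc4 fell by 0.59 (0.0361). The list's median was 0.12, close to the 0.14 of the 10 genes, and with the correction 1 was higher and 1 lower, neither of them among those named here (adjusted p 0.146 to 0.271).

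Selenoproteins and the oxidant source were also divided. Selenop, the secreted selenium carrier, fell from 4767 ± 632 to 2641 ± 232 CPM in WT (-0.85 on the log2 scale, edgeR adjusted p = 0.00647) and Scly, which releases selenium from selenocysteine, fell by 0.61 (0.0221), while Selenok rose by 0.46 (0.0419) and Selenof by 0.47 (0.0469); these were the 4 of 17 genes that passed. With the length and GC correction Selenok (0.15, 0.179) and Selenof (0.36, 0.0547) no longer passed, which left 0 higher and 2 lower. Gpx1, Gpx4 and Txnrd1 are themselves selenoproteins, and as given above the first 2 rose and Txnrd1 fell. Among NADPH oxidase genes Cyba (0.60, 0.0192) and Cybc1 (0.31, 0.0351) rose and Cybb, the catalytic subunit, fell by 0.45 (0.0357), of which Cyba (0.24, 0.0527) and Cybb (-0.32, 0.0757) no longer passed with the correction. In the other 3 simple contrasts 0 genes of the 7 lists passed, in contrasts where 0.081% to 0.105% of all genes did.

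**Figure D5:**
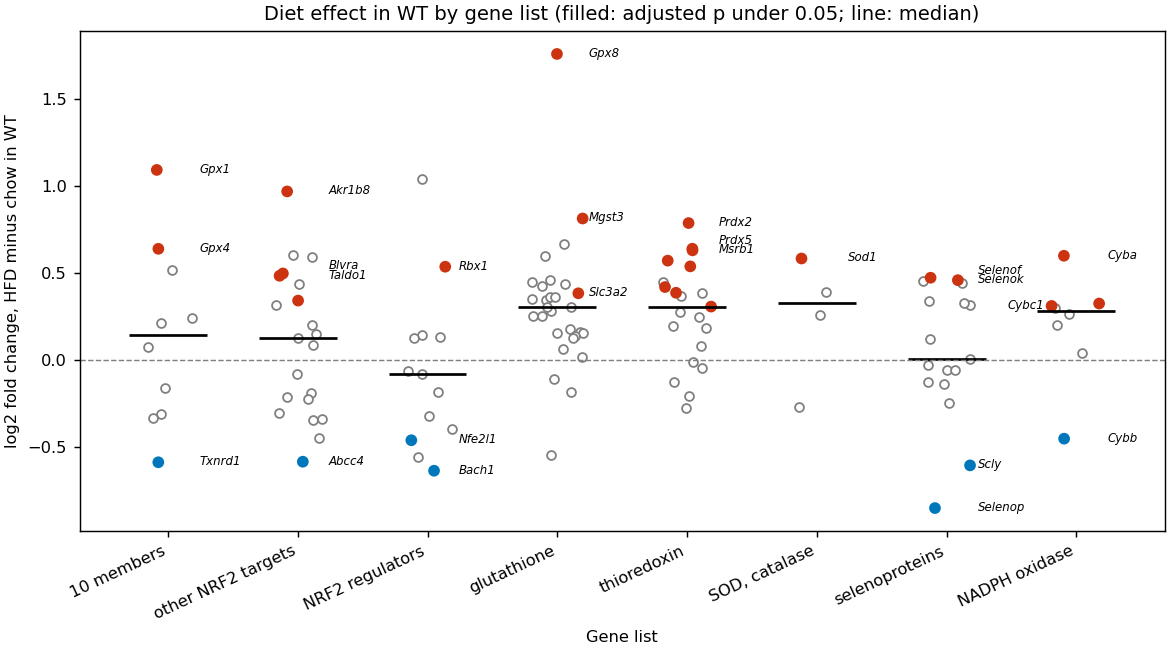
Log2 fold change for HFD minus chow in WT (y axis) of the 10 genes and the genes of 7 related lists (x axis). Filled points passed an adjusted p of 0.05 (red higher, blue lower), open points did not, and lines are list medians. Labelled genes are named in the text. The thioredoxin list has 8 filled points, all above 0, and the 10 genes have 2 above and 1 below.

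Finally, the genes whose log2 CPM followed 2 of the 10 most closely over the 12 libraries were listed, as a description. For Nfe2l2 these were Zfp593, Rnf185, Usp18, Uchl4 and Gon7 (Pearson's r 0.903 to 0.913, Spearman's rho 0.888 to 0.944), and r was 0.803 to 0.946 without the 2 libraries farthest from its median. For Gclm they were Hmox1 (r 0.92, rho 0.685), Cd1d1, Nxf1, Ikbkg and Lrrc51 (0.839 to 0.911). Without meKO chow replicate 2 and WT chow replicate 2 the r of those 5 with Gclm was 0.258 to 0.513, so the likeness rested on these libraries. The 12 points share the group structure and the dependence on transcript length given above.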

How the data were processed

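The authors deposited a table of raw counts, whole numbers for each gene in each library, keyed by Entrez identifier and symbol. Per the submitters' processing notes the build was mm10 and DESeq2 was used; the aligner, the counting tool and the strand setting were not given in the sources used here, so reads shared with near-identical copies or overlapping genes cannot be checked. Groups came from the sample titles. The fit used edgeR 4.0.16 in R 4.3.3: TMM factors, filterByExpr, robust dispersions, and a quasi-likelihood F test on 4 group means over 12 libraries, two-sided, in 7 contrasts. A gene passed when its Benjamini-Hochberg adjusted p, over all 12339 genes, was under 0.05. SE is the size of the log2 fold change divided by the square root of F. CPM values were computed from the deposited counts and the TMM factors, over library sizes of 25844958 to 37282772. An exact permutation test of 3 libraries against 3 cannot go below 0.1, so single genes rest on the shared fit. In the 12 replicate pairs the chi-square per degree of freedom over genes was 16.9 to 110, so no pair looked like copies of 1 library. Lengths and GC came from the longest GENCODE M21 transcript, known for 93.5% of genes. The fit was also run on simulated counts with known changes in WT HFD. Those counts held no dependence on transcript length, so that run does not bear on this feature of the libraries.

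Named were all 10 members; from each of 7 lists up to 4 genes with the smallest p among those called, in the 4 simple contrasts; and the 5 genes most like Nfe2l2 and Gclm. Members and lists were chosen with earlier results of these data known. Genes named beside meKO chow replicate 2, its listing, and the comparisons of length classes were chosen after values were seen. The other settings tried were DESeq2 1.42.0, limma-voom (limma 3.58.1) without and with quality weights for libraries, scaling by median-of-ratios factors or by library totals, no low-count filter or a minimum of 10 counts in all libraries, non-robust dispersions, a fit of the compared groups alone, a smooth correction for length and GC content (mgcv 1.9.3), and leaving out each library. A few withheld items are not reported here.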

Additional observations from a re-analysis of the deposited data

How the results depend on the processing

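Of the 10 genes, Gpx1 kept its call for diet in WT in 22 of 22 alternatives, Gpx4 in 18 and Txnrd1 in 16. These alternatives are not all separate checks. The setting without the low-count filter kept the same 12339 genes and gave the same values as the main fit, here and in the other counts of alternatives. Settings that left out a meKO library kept both groups of the diet contrast in WT whole. Counts of members called changed as follows; the cause was not tested. DESeq2 called 1 for genotype on chow (563 of all 11142 genes tested) and 1 for diet in meKO (226 of 12099), where edgeR called 0 members. Voom with library quality weights called 3 for genotype on chow, where 4047 of all 12339 genes were called. For diet in WT it called 5 (not 3, with Nfe2l2 and Prdx1 added), where 6411 of all genes were called. It called 1 for the interaction (295 of all genes) and 2 for genotype averaged over diets (3835 of all genes). Leaving out 1 library gave 0 to 2 for genotype on chow (2 without WT chow replicate 3, where 2543 of all genes were called). For diet in WT it gave 1 to 3 (1 without WT chow replicate 1 or 2 or WT HFD replicate 1 or 3). In the contrast of diet in WT the count over all genes without 1 of these 4 was 129, 319, 460 and 96, where 2634 were called with all libraries, in fits with fewer samples. A sign reversed in 31 of the single-gene values, none of them called in either fit. Scaling by library totals gave Gclm -0.00982 for diet in WT. Quality weights gave Gclc -0.0165 for genotype on chow and Keap1 -0.0745 for genotype on HFD. The length and GC correction gave Keap1 0.0757 for genotype on chow, 0.083 for the diet effect in WT and 0.0162 for that in meKO, Nfe2l2 -0.009997 for genotype on HFD and Prdx1 -0.0387 for diet in meKO. Leaving out 1 library gave the following ranges, on the log2 scale. For genotype on chow they were -0.119 to 0.0556 for Keap1, -0.221 to 0.347 for Gclc and -0.33 to 0.0147 for Txnrd1. For genotype on HFD they were -0.0525 to 0.106 for Nfe2l2, -0.0686 to 0.0999 for Keap1, -0.00735 to 0.255 for Gsr, -0.0941 to 0.0652 for Gpx1, -0.178 to 0.0801 for Gpx4 and -0.163 to 0.25 for Prdx1. For the diet effect in WT the range was -0.008999 to 0.2002 for Gclm, and in meKO it was -0.436 to 0.132 for Gclc, -0.134 to 0.362 for Prdx1 and -0.239 to 0.192 for Srxn1. No paired analysis was possible because the titles give each library a number of its own, shared by no other group, and the replicate numbers only follow the order of the samples. Groups of 3 and counts as low as 440 per library, for Gclc, limit the precision.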

Other observations

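Gpx1, Keap1 and Gclc lie on chromosome 9. For genotype on HFD 7 genes of that chromosome were called (edgeR adjusted p under 0.05), and 6 of these lay within 3.21 Mb of Gpx1 in GRCm38: Nudt16, Alas1, Dusp7, Rpl29, Abhd14b and Hyal1, the nearest being Hyal1 at 0.762 Mb. Rpl29 was at 6.68 ± 0.192 CPM in WT HFD and 5.22 higher on the log2 scale in meKO HFD (adjusted p = 1.03e-07); its pseudogenes could share reads. Gpx1 itself differed by -0.02 ± 0.15 in that contrast. For diet in WT, where Gpx1 rose by 1.09, 4 of these 6 genes were called as well, as given above, while Alas1 (-0.37, adjusted p = 0.0805) and Hyal1 (0.37, 0.104) were not.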
